A study of Mus musculus with 8 samples.

Results

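The genes described here are the class I antigen processing machinery of the mouse, 10 genes chosen by name: B2m, Tap1, Tap2, Tapbp, Psmb8, Psmb9, Psmb10, Psme1, Psme2 and Nlrc5. All 10 were found among the 45706 gene rows of the deposited count table, and all 10 were among the 15049 genes that held 10 or more counts in 2 or more libraries and were tested. Psmb8 and Psmb9 reached that minimum through the wild-type libraries, since 1 KO library of each held 10 counts and the others fewer. Chromatin-associated RNA, the fraction that stays with chromatin and is rich in transcripts still being made, was sequenced from primary mouse embryonic fibroblasts (MEFs) of the C57BL/6 strain. Cells with the genotype crel-/-rela-/- (KO), which lack the NF-kB subunits cRel and RelA, were set against wild-type (WT) cells. Both were starved overnight in 0.5% serum and then given tumour necrosis factor (TNF), a cytokine that activates NF-kB, at 10 ng/ml. The 8 libraries are 1 of each genotype at 0, 15, 45 and 60 min, where 0 min is the untreated control. No untreated library at a later time was analysed here, so the effect of TNF and that of time or handling cannot be told apart, and nothing in the labels says how many embryos or cultures stand behind a library. How the alleles were made and which part of each gene they lack was not given in any source used here.

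Class I molecules carry peptides of proteins made inside a cell to its surface, where CD8+ T cells read them. The proteasome cuts the proteins, the transporter made of Tap1 and Tap2 moves the peptides into the endoplasmic reticulum, tapasin (Tapbp) holds the transporter next to empty class I molecules, and the light chain beta-2 microglobulin (B2m) completes the molecule. Interferon and NF-kB signals are known to raise many of these genes, and Nlrc5 is known as a transactivator of class I genes.

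The promoters were read in RefSeq sequence (GRCm38.p6), which held windows for 8 of the 10 genes (not Tap2 and Nlrc5), from 250 bases before to 50 bases after a RefSeq start. Among the searched motifs B2m carried an NF-kB consensus and an interferon-stimulated response element (ISRE) core, GAAA followed after any 2 bases by GAAA, each searched on both strands, and its upstream sequence is shown because these lie next to each other. It is chr2:122147437-122147686 on the plus strand, with the motifs in capitals, first the ISRE core 139 bases before the start, then the NF-kB match 126 bases before it, which reads as the consensus on the opposite strand.
B2m: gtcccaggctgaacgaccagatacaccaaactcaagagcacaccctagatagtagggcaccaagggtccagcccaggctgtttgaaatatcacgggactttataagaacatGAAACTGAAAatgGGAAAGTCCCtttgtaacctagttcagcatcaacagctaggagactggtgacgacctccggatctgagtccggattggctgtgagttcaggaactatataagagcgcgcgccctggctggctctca
The other matches are shown with 10 bases on each side, the match in capitals. In Psme1 an ISRE core lay on the opposite strand 9 bases after the RefSeq start (chr14:55578503-55578512), and in Psmb8 a TTCNNNGAA match, the core of the gamma-interferon activated sequence, lay 97 bases before it (chr17:34198098-34198106).
Psme1: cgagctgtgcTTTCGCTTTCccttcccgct
Psmb8: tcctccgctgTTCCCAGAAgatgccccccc
Of all 32851 promoter windows of 300 bases, 4.51% held the NF-kB consensus, 3.44% held the ISRE core and 8.30% held TTCNNNGAA. The windows of Tap1, Tapbp, Psmb9, Psmb10 and Psme2 held none of these letters, which says nothing about sites outside them.

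The genes sit at 6 places in the genome (mm10). B2m lies on chromosome 2 (122147686 to 122153083, plus strand). Psmb9 (34181988 to 34187764, minus strand), Tap1 (34187553 to 34197225), Psmb8 (34197721 to 34201454) and Tap2 (34203527 to 34216321, all 3 plus strand) are neighbours on chromosome 17. Psmb9 and Tap1 point away from each other and share 212 exonic bases, Psmb8 starts 495 bases after Tap1 ends, and Tap2 starts 2072 bases after Psmb8 ends. Tapbp is on the same chromosome (33915899 to 33929288, plus strand), 252699 bases away from Psmb9. Psme1 (55578123 to 55581529, plus strand) and Psme2 (55587441 to 55591113, minus strand) lie 5911 bases apart on chromosome 14, and Nlrc5 (94472763 to 94527272, plus strand) and Psmb10 (105935728 to 105938392, minus strand) lie far apart on chromosome 8. No source used here gives the strand setting of the counting, so reads in the shared bases of Psmb9 and Tap1 cannot be assigned, and the same holds for 665 exonic bases of Tapbp, 20.2% of its exons, that overlap the antisense gene model Gm19412, which held 137 counts over all libraries. The near copy of Psme2, Psme2b, held 13 counts over all libraries.

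Levels are given as CPM, counts relative to a library size scaled by TMM, a method that lines up the bulk of genes between libraries. Library totals were 12359817 to 15607331 counts, and 55.5% to 68.3% of them fell on a few gene models with over 10% of a library each, which left 4303446 to 6175359 counts for all other genes. The targeted genes were read in exons of both genotypes: Rela had 306, 241, 291 and 324 counts in KO and 324, 406, 704 and 589 in WT, and Rel had 478, 308, 538 and 633 in KO and 151, 173, 805 and 506 in WT, which checks nothing about the labels without the deleted parts. Fibroblast markers summed to 9897 to 13299 CPM in KO and 9020 to 11530 CPM in WT, with all 10 detected in every library. Leukocyte markers summed to 7.15 to 9.18 CPM in KO and 60.4 to 83.2 CPM in WT. Most of the KO sum came from Cd68, with a mean of 5.88 CPM in KO and 7.25 CPM in WT. Fcer1g followed, at 1.18 CPM in KO and 2.19 CPM in WT. Among the remaining leukocyte markers the highest KO mean was that of Csf1r, 0.505 CPM against 15.1 CPM in WT. Ptprc averaged 0.0778 CPM in KO and 11.5 CPM in WT. All 12 leukocyte markers were detected in each WT library, whereas 2 to 6 of the 12 were at 0 in a KO library, with the Fc receptor gene Fcgr1 at 0 in all 4. Markers of cartilage summed to 20.2 to 398 CPM in KO, highest at 0 min, and 7.26 to 11.5 CPM in WT. Endothelial markers summed to 9.09 to 14.7 CPM in KO and 3.68 to 5.30 CPM in WT, and epithelial ones to 2.47 to 12.7 CPM in KO and 0.722 to 1.22 CPM in WT. In bulk RNA fewer cells of a type and less RNA per cell cannot be told apart.

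Levels of different genes are set side by side only per kilobase of exon. Per kilobase, B2m was the highest of the 10 in both genotypes, at 10.7 to 18.1 CPM per kb over the 4 KO libraries and 29.8 to 51.0 CPM per kb over the 4 WT libraries. Tapbp came next by its mean over the libraries, at 3.82 to 5.06 CPM per kb in KO and 5.24 to 20.9 CPM per kb in WT. The lowest means were those of Psmb9, at 0.0868 to 0.193 CPM per kb in KO and 0.215 to 0.691 CPM per kb in WT, and of Psmb8, at 0.0645 to 0.219 CPM per kb in KO and 0.523 to 2.03 CPM per kb in WT. The range of B2m overlapped with that of no other gene within a genotype. In WT the order of the means between Tapbp and Psmb8 was Psmb10 (2.04 to 9.90), Psme2 (2.08 to 8.31), Psme1 (3.29 to 6.38), Tap1 (3.03 to 4.38), Tap2 (2.24 to 4.30) and Nlrc5 (1.56 to 2.22 CPM per kb), and the ranges of neighbours in this order overlapped except those of Tap2 and Nlrc5. In KO the order of the same genes was Psme1 (2.72 to 3.27), Tap1 (1.55 to 2.67), Psmb10 (1.81 to 2.22), Psme2 (1.62 to 1.95), Tap2 (0.853 to 1.63) and Nlrc5 (0.422 to 0.756 CPM per kb), where Psme1 and Tap1, and Tap2 and Nlrc5, did not overlap and the others next to each other did.

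**Figure D1:**
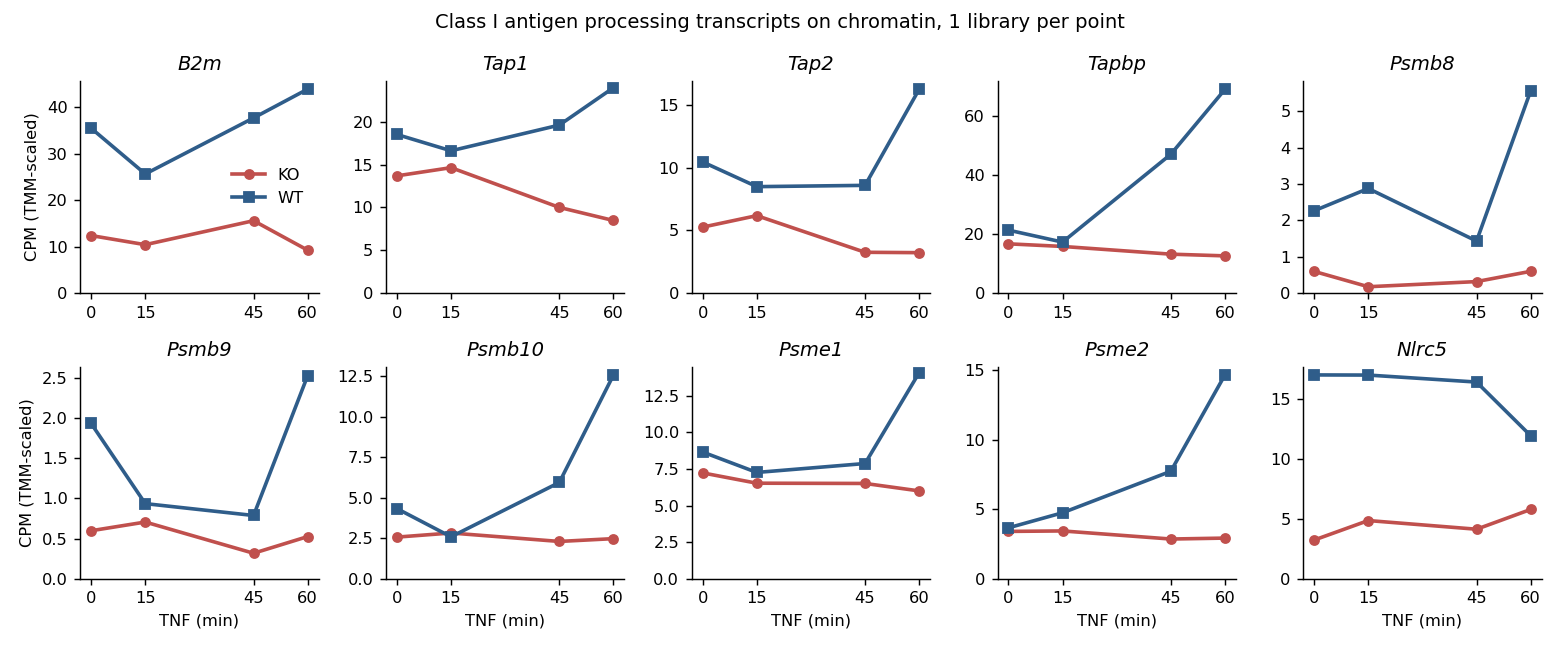
CPM (TMM-scaled) of each of the 10 genes against minutes of TNF, 1 library per point, KO as red circles and WT as blue squares, each panel with its own linear axis from 0. Tapbp reached 12.6 CPM in KO and 68.9 CPM in WT at 60 min, whereas Nlrc5 was lower at 60 min than at 0 min in WT.

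The first question was which of the genes changed late after TNF. In WT cells 2 of the 10 rose, Tapbp and Psme2, against 4.17% of all tested genes called higher, and none fell, against 1.31% called lower. In KO cells 0 of the 10 were called in either direction, against 1.32% of all genes called higher and 0.518% called lower. Before adjustment 1 of the 10, Tap1, had an edgeR p under 0.05 in KO, in the lower direction, and DESeq2 and limma-voom also called 0. The late response is the mean of the 45 and 60 min libraries against 0 min on the log2 scale, from the edgeR quasi-likelihood test over 15049 genes with Benjamini-Hochberg adjustment and a threshold of 0.05. The late state of a genotype thus has a library from each of 2 times and no replicate of either, so the p-values measure the spread between different times. The median log2 change of the 10 genes was -0.30 in KO and 0.29 in WT, beside -0.01 in KO and -0.00 in WT over all tested genes, and 1 of the 10 lay above 0 in KO and 8 of the 10 in WT.

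Tapbp encodes tapasin, which edits the peptides that class I molecules take. It stood at 16.7, 15.8, 13.2 and 12.6 CPM in KO at 0, 15, 45 and 60 min, and at 21.3, 17.3, 47.0 and 68.9 CPM in WT. Both late WT libraries lay above all 6 other libraries, and the KO libraries all lay below every WT library. The late change was -0.37 ± 0.24 in KO (SE, adjusted p = 0.446) and 1.44 ± 0.24 in WT (adjusted p = 0.00337). The difference between the late responses, KO minus WT, was -1.81 ± 0.33 (adjusted p = 0.0312), and Tapbp was the 1 gene of the 10 for which this difference was called, against 0.492% of all genes called lower and 0.00664% called higher. The call of the difference was lost without the KO 45 min library (-1.84, adjusted p = 0.0611) and without the KO 60 min library (-1.78, adjusted p = 0.0565), and with limma-voom (-1.78, adjusted p = 0.0606).

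Psme2 and Psme1 encode the beta and alpha subunits of the PA28 activator, a ring that caps the proteasome. Psme2 stood at 3.41, 3.44, 2.86 and 2.93 CPM in KO and at 3.66, 4.75, 7.73 and 14.7 CPM in WT. At 0 min the genotypes were close, and the WT level was higher at each later time. The late change of Psme2 was -0.24 ± 0.40 in KO (adjusted p = 0.807) and 1.61 ± 0.37 in WT (adjusted p = 0.0250). The WT call was lost without the WT 60 min library (1.07, adjusted p = 0.0763), with DESeq2 (adjusted p = 0.0927) and with 15 min as the baseline (1.24, adjusted p = 0.0831). The difference for Psme2, KO minus WT, was -1.84 ± 0.55 (adjusted p = 0.278), not called with all libraries and called without the WT 45 min library (-2.21, adjusted p = 0.00863). Its partner Psme1 stood at 7.23, 6.53, 6.51 and 6.00 CPM in KO and at 8.66, 7.26, 7.87 and 14.1 CPM in WT. Only the WT 60 min library of Psme1 stood apart from the other 7, and its late change was -0.21 ± 0.32 in KO and 0.34 ± 0.31 in WT, neither called (adjusted p = 0.781 in KO and 0.612 in WT).

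The 3 immunoproteasome subunits take the places of the constitutive catalytic subunits and change which peptides are cut. Psmb10 stood at 2.57, 2.82, 2.30 and 2.48 CPM in KO and at 4.33, 2.59, 5.94 and 12.6 CPM in WT. Its WT libraries spread widely with the 15 min library as low as those of KO. The late change of Psmb10 was -0.10 ± 0.47 in KO (adjusted p = 0.935) and 1.09 ± 0.40 in WT (adjusted p = 0.146). The WT change was called without the WT 45 min library (1.52, adjusted p = 0.00370), against the 15 min library (1.83, adjusted p = 0.0345) and against 0 and 15 min together (1.41, adjusted p = 0.00857). Psmb8 had 10, 2, 4 and 8 counts in KO and 34, 40, 20 and 77 in WT. Psmb9 had 10, 8, 4 and 7 counts in KO and 29, 13, 11 and 35 in WT. For both, the KO libraries held fewer counts than any WT library. The late change in KO was thus poorly measured, with an SE of 1.00 for Psmb8 and 0.85 for Psmb9. How large a change could be called at this depth was not tested. The late change was -0.36 ± 1.00 in KO and 0.62 ± 0.61 in WT for Psmb8, and -0.49 ± 0.85 in KO and -0.22 ± 0.57 in WT for Psmb9, none called (adjusted p = 0.886, 0.642, 0.811 and 0.883 in that order).

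The transporter genes, the light chain and the regulator were not called in either genotype. Tap1 stood at 13.7, 14.6, 10.0 and 8.48 CPM in KO and at 18.5, 16.6, 19.6 and 24.0 CPM in WT. Tap2 stood at 5.26, 6.18, 3.26 and 3.23 CPM in KO and at 10.5, 8.49, 8.59 and 16.3 CPM in WT. The late KO libraries of both were the lowest of the 8. The late change of Tap1 was -0.57 ± 0.22 in KO (adjusted p = 0.200) and 0.23 ± 0.21 in WT (adjusted p = 0.606). That of Tap2 was -0.70 ± 0.37 in KO (adjusted p = 0.354) and 0.25 ± 0.32 in WT (adjusted p = 0.732). The Tap1 value in KO was called when 0 and 15 min together formed the baseline (-0.61, adjusted p = 0.0375).

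B2m stood at 12.4, 10.4, 15.6 and 9.23 CPM in KO and at 35.4, 25.6, 37.6 and 43.8 CPM in WT, with no overlap between genotypes. Its late change was -0.00 ± 0.27 in KO (adjusted p = 1.00) and 0.20 ± 0.24 in WT (adjusted p = 0.715). Nlrc5 stood at 3.23, 4.85, 4.13 and 5.78 CPM in KO and at 17.0, 17.0, 16.4 and 11.9 CPM in WT. Its KO level was highest and its WT level lowest at 60 min. Its late change was 0.62 ± 0.32 in KO (adjusted p = 0.340) and -0.26 ± 0.25 in WT (adjusted p = 0.631). The difference, KO minus WT, was 0.88 ± 0.41 for Nlrc5 (adjusted p = 0.651), the only value above 0 among the 10, whose median was -0.87 beside -0.00 over all genes. It was -0.80 ± 0.30 for Tap1 (adjusted p = 0.478), -0.94 ± 0.49 for Tap2 (0.734), -1.20 ± 0.61 for Psmb10 (0.721), -0.99 ± 1.18 for Psmb8 (0.969), -0.27 ± 1.01 for Psmb9 (0.992), -0.55 ± 0.44 for Psme1 (0.918) and -0.20 ± 0.36 for B2m (0.981), and none of these was called.

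**Figure D2:**
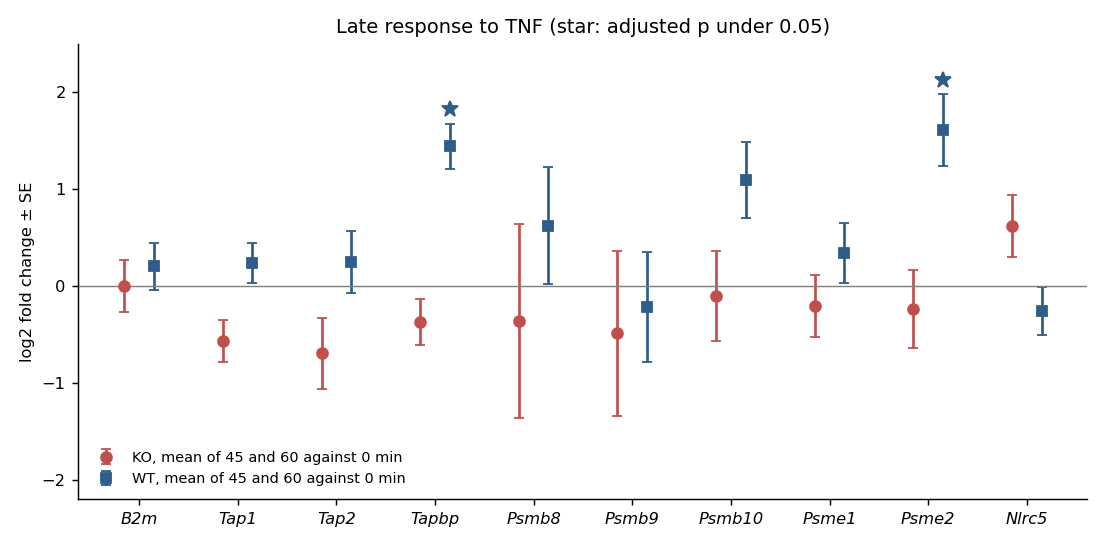
Late response to TNF (mean of 45 and 60 min against 0 min, log2 fold change, bars ± SE) of the 10 genes, KO as red circles left of WT as blue squares, with a star where the adjusted p was under 0.05. Stars stand at the WT values of Tapbp (1.44) and Psme2 (1.61), and no KO value has one.

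The late WT libraries also differed from each other. From the WT 45 min to the WT 60 min library, the counting interval of the ratio lay above 1 for 9 of the 10 genes, against 11.8% of all tested genes, and below 1 for Nlrc5, against 11.9%. In KO the interval lay above 1 for 0 of the 10, against 13.0% of all genes, and below 1 for B2m, against 11.8%. These are ratios of single libraries with exact Clopper-Pearson intervals at 95%, which cover counting error only, and there is no test. The difference of the step between genotypes was not tested.

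At least 2-fold higher in the WT 60 min library were 3 of the 10, all immunoproteasome genes, against 0.944% of all genes, where the 2-fold rule also asks for an interval that excludes 1 and at least 20 counts in the higher library. Psmb8 was at 1.89 (0.506 to 8.58) times its 45 min level in KO and 3.88 (2.35 to 6.71) times in WT. Psmb9 was at 1.65 (0.420 to 7.70) in KO and 3.21 (1.59 to 7.01) in WT, and Psmb10 at 1.08 (0.633 to 1.84) in KO and 2.12 (1.62 to 2.78) in WT. The KO intervals of Psmb8 and Psmb9 include the WT ratios, so the counts cannot tell the genotypes apart there. The PA28 genes followed, Psme1 at 0.922 (0.669 to 1.27) in KO and 1.79 (1.41 to 2.28) in WT, and Psme2 at 1.02 (0.634 to 1.66) in KO and 1.90 (1.49 to 2.42) in WT. Tap2 was at 0.991 (0.631 to 1.56) in KO and 1.89 (1.51 to 2.38) in WT. Tapbp was at 0.956 (0.767 to 1.19) in KO and 1.47 (1.33 to 1.62) in WT, and Tap1 at 0.847 (0.651 to 1.10) in KO and 1.22 (1.04 to 1.44) in WT. B2m was at 0.593 (0.469 to 0.747) in KO and 1.16 (1.03 to 1.31) in WT, and Nlrc5 at 1.40 (0.972 to 2.03) in KO and 0.727 (0.592 to 0.892) in WT. The median log2 ratio of the 10 was 0.01 in KO and 0.88 in WT, beside 0.00 in KO and 0.01 in WT over all genes. The leukocyte markers summed to 7.15 and 8.25 CPM in KO at 45 and 60 min and to 67.9 and 60.4 CPM in WT. Whether cell make-up had a part in the step between these libraries was not tested.

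**Figure D3:**
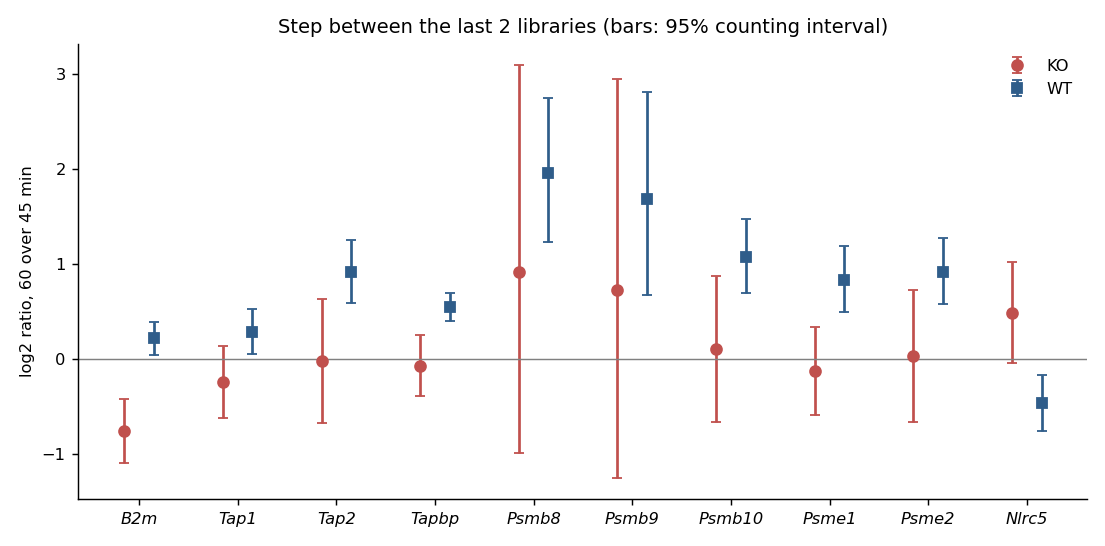
Log2 ratio of the 60 min to the 45 min library for each of the 10 genes, KO as red circles left of WT as blue squares, with bars for the 95% counting interval. The WT bars of 9 genes lie above 0 and that of Nlrc5 below 0, and in KO the bar of B2m lies below 0 while the other 9 cross it.

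Set against 0 min in WT, most of the genes stood lower at 15 min, with 2 of the 10 ratios above 1. Their median log2 ratio was then -0.28, beside 0.00 over all genes. At 15 min 0 of the 10 had an interval above 1, against 14.6% of all genes, and 4 lay below 1, against 10.7% of all genes below: B2m (0.723), Tapbp (0.810), Psmb10 (0.598) and Psmb9 (0.484). At 45 min Tapbp (2.20, interval 1.92 to 2.53) and Psme2 (2.11, 1.51 to 2.98) were at least 2-fold higher, against 4.13% of all genes, and Psmb9 (0.408, 0.184 to 0.841) was at least 2-fold lower, against 2.84%. At 60 min 8 of the 10 had an interval above 1, against 21.5% of all genes, and 4 were at least 2-fold higher, against 5.01%: Psme2 (4.0), Tapbp (3.23), Psmb10 (2.90) and Psmb8 (2.46). Thus Tapbp and Psme2 were already high at 45 min, whereas Psmb10 and Psmb8 passed 2-fold at 60 min. In KO at 60 min B2m (0.746), Tap1 (0.619), Tap2 (0.613) and Tapbp (0.756) had intervals below 1, against 18.6% of all genes, while that of Nlrc5 (1.79) lay above 1, against 21.0%.

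The second question was how KO differed from WT whatever the time. Over the 4 times, 9 of the 10 genes were lower in KO, against 9.44% of all tested genes called lower, and 0 were higher, against 6.81% (edgeR quasi-likelihood test, time as a block). The 4 times stand in for replicates here. The p-values thus measure how evenly the difference held over the times, and not the spread between cultures or embryos. The log2 difference, KO minus WT, was -2.72 ± 0.33 for Psmb8 (adjusted p = 0.000402), -1.80 ± 0.19 for Nlrc5 (0.000179), -1.58 ± 0.15 for B2m (0.000102) and -1.27 ± 0.24 for Tap2 (0.00594). These 4 remained called under each left-out library. The other 5 calls were -1.50 ± 0.35 for Psmb9 (adjusted p = 0.0160), -1.21 ± 0.33 for Tapbp (0.0314), -1.18 ± 0.31 for Psmb10 (0.0292), -1.14 ± 0.31 for Psme2 (0.0313) and -0.76 ± 0.18 for Tap1 (0.0192). Psme1, at -0.49 ± 0.18 (0.0884), was not called, though it was under total-count scaling (-0.67) and without a count filter (-0.49). The median of the 10 was -1.24 beside 0.01 over all genes. Leaving out a late library ended some of these calls: without WT 60 min those of Tapbp (-0.79), Psmb9 (-1.19), Psmb10 (-0.71) and Psme2 (-0.68), without KO 60 min those 4 (-0.78, -1.19, -0.71 and -0.67) and that of Tap1 (-0.52). Without WT 45 min Tap1 (-0.69), Tapbp (-0.99), Psmb10 (-1.12) and Psme2 (-1.03) were not called, and without KO 45 min the same 4 were not called (-0.69, -0.99, -1.12 and -1.04). Psmb9 was also not called without WT 0 min (-1.43), and the calls of Tap1, Tapbp, Psmb10 and Psme2 were lost with robust empirical Bayes. With DESeq2 Tapbp (-1.19, adjusted p = 0.159) and Psmb9 (-1.45, 0.0900) were not called. Without the time block Psmb9 (-1.51, 0.0655), Psmb10 (-1.32, 0.0839) and Psme2 (-1.28, 0.0718) were not called. Psmb8 and Psmb9 reached the count minimum only through their WT libraries.

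The late libraries alone gave 8 of the 10 lower in KO, against 7.88% of all genes called lower, and 0 higher, against 3.92%. Among the genes called, the largest differences were those of Psmb8 (-2.89 ± 0.65, adjusted p = 0.0109), Tapbp (-2.17 ± 0.19, 1.46e-05), Psme2 (-1.95 ± 0.31, 0.00109), Psmb10 (-1.95 ± 0.35, 0.00248) and Tap2 (-1.93 ± 0.30, 0.000924). B2m (-1.72 ± 0.21, 0.000206), Nlrc5 (-1.51 ± 0.23, 0.000911) and Tap1 (-1.24 ± 0.18, 0.000645) were also lower, by the same edgeR test. Psmb9 (-1.94 ± 0.62, 0.0640) and Psme1 (-0.81 ± 0.26, 0.0651) were not called, and both were called without the WT 45 min library (-2.54 and -1.16) and under total-count scaling. The call for Psmb8 was lost without WT 60 min (-1.62, adjusted p = 0.0866), without KO 45 min (-2.52, adjusted p = 0.0794), with limma-voom (-2.57, adjusted p = 0.0658) and without a count filter (adjusted p = 0.0897). Psmb8, like Psmb9, entered this test only through its WT libraries, the group in which it was higher. Leukocyte markers, whose cells are known to be rich in class I transcripts, summed to 7.15 to 9.18 CPM in KO against 60.4 to 83.2 CPM in WT. Of the 11 that entered the tests 9 did so only through their WT libraries. Their part in the lower level of the 10 genes was not tested.

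At 0 min the ratio of KO to WT was already below 1 for all 10 genes, beside a median log2 ratio of 0.01 over all tested genes. At that time 4 of the 10 were at least 2-fold lower in KO, against 3.37% of all genes: Nlrc5 at 0.190 (0.139 to 0.256) times WT, Psmb8 at 0.264 (0.116 to 0.546), Psmb9 at 0.309 (0.135 to 0.653) and B2m at 0.349 (0.296 to 0.411). Psme2 was at 0.930 (0.631 to 1.37) and Psme1 at 0.835 (0.647 to 1.08), with intervals that include 1, and Tapbp at 0.782 (0.664 to 0.922), Tap1 at 0.739 (0.618 to 0.884), Psmb10 at 0.594 (0.394 to 0.886) and Tap2 at 0.503 (0.383 to 0.657). Before TNF the gap between the genotypes was thus widest for Nlrc5, Psmb8, Psmb9 and B2m. It was narrowest for Psme2 and Psme1, followed by Tapbp, whose interval already lay below 1. At 15 min 3 of the 10 were at least 2-fold lower, against 3.44% of all genes, at 45 min 7 of the 10, against 5.58%, and at 60 min 10 of the 10, against 5.70%. At 60 min the lowest ratios were 0.108 (0.0450 to 0.223) for Psmb8, 0.183 (0.154 to 0.216) for Tapbp, 0.197 (0.131 to 0.287) for Psmb10, 0.199 (0.140 to 0.276) for Tap2 and 0.200 (0.138 to 0.282) for Psme2, and the highest was 0.485 (0.365 to 0.639) for Nlrc5. The median log2 ratio of the 10 was -0.87, -0.43, -1.38 and -2.30 at 0, 15, 45 and 60 min, beside 0.00 to 0.01 over all genes.

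**Figure D4:**
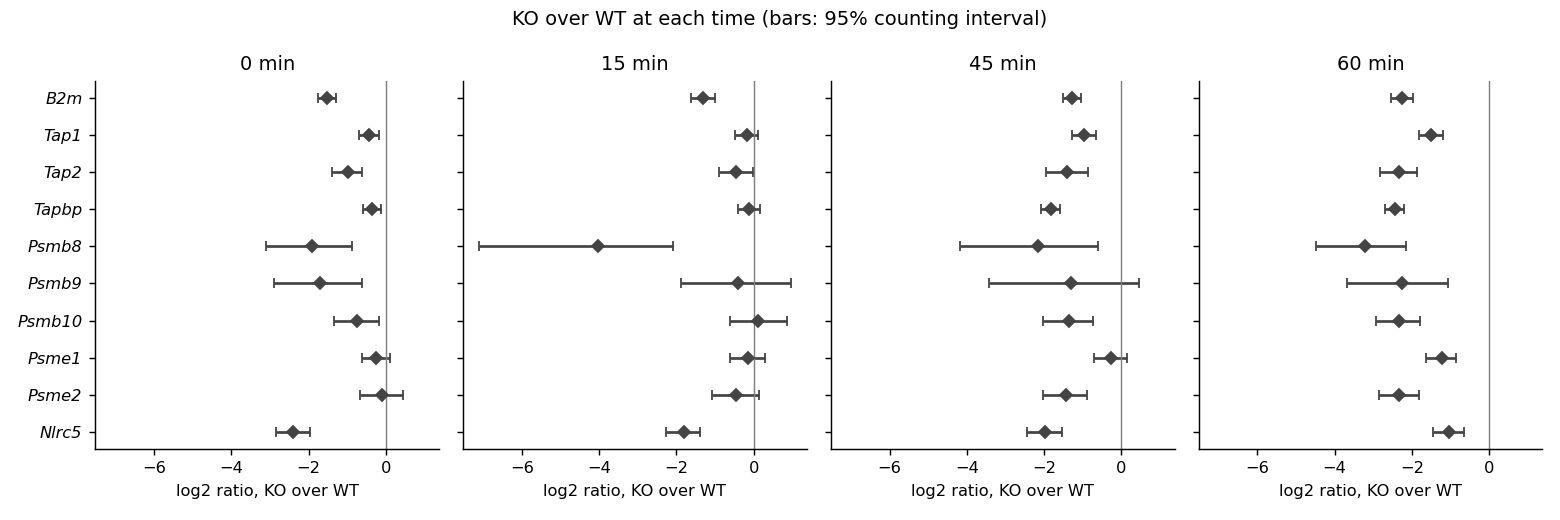
Log2 ratio of KO to WT for each of the 10 genes in 4 panels, one for each time of TNF, with bars for the 95% counting interval and a line at 0 for equal levels. Tapbp and Psme2 lie near 0 at 0 min and below -2 at 60 min, and Nlrc5 lies below 0 at every time and closest to 0 at 60 min.

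Each immunoproteasome gene was also set against the constitutive subunit it replaces, within a library, as a ratio of counts per kilobase that needs no scaling between libraries. The constitutive genes Psmb5, Psmb6 and Psmb7 were called in 0 of the 5 tests each, with late changes of 0.21, -0.26 and 0.03 in KO and 0.14, -0.13 and 0.23 in WT. Psmb10 over Psmb7 was 0.254, 0.182, 0.193 and 0.282 in KO at 0, 15, 45 and 60 min and 0.441, 0.218, 0.472 and 1.21 in WT. Psmb8 over Psmb5 was 0.127, 0.0354, 0.0670 and 0.0980 in KO and 0.492, 0.606, 0.265 and 1.17 in WT, on 18 to 26 counts of Psmb5 per library. In WT both ratios were highest at 60 min, with intervals of 0.958 to 1.52 for Psmb10 over Psmb7 and 0.713 to 1.99 for Psmb8 over Psmb5, which include 1. Psmb9 over Psmb6 stayed far lower, at 0.0192, 0.0242, 0.0104 and 0.0240 in KO and 0.0765, 0.0343, 0.0363 and 0.104 in WT. In KO no ratio of the 3 pairs exceeded 0.282 at any time.

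**Figure D5:**
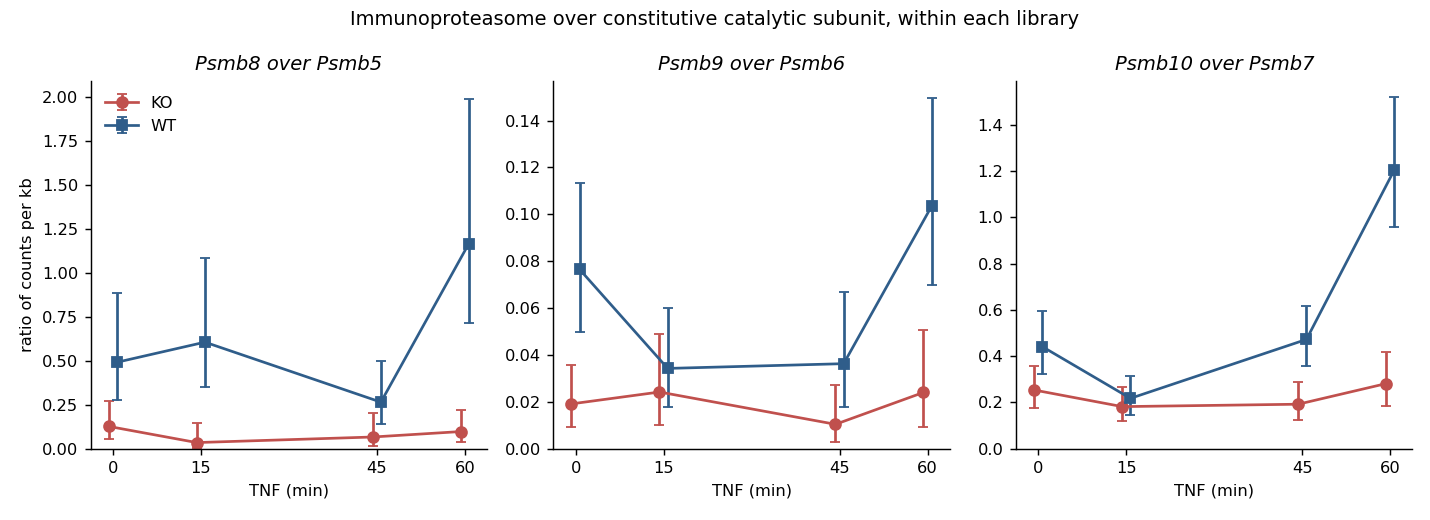
Ratio of counts per kb of each immunoproteasome gene to its constitutive counterpart within a library, against minutes of TNF, KO as red circles and WT as blue squares, with bars for the 95% counting interval. The WT ratios of Psmb8 over Psmb5 (1.17) and Psmb10 over Psmb7 (1.21) at 60 min are the highest points of their panels, and the KO ratios stay at or below 0.282.

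The rest of the proteasome gave few calls. Of 11 other genes of the core particle and 18 of the regulatory particle 0 were called in the late response of either genotype or in the difference, with median changes of -0.14 and -0.02 in KO and 0.07 and 0.08 in WT. Before adjustment 1 of the 11 had an edgeR p under 0.05 late in WT, and 0 of either group in KO or for the difference. Late KO against WT called 1 of the 11, Psma6, lower (-0.78 ± 0.19, adjusted p = 0.0180), against 7.88% of all genes. This call was lost without WT 45 min (-0.71), without KO 60 min (-0.63), with DESeq2 (adjusted p = 0.206) and without a count filter (0.0656). Over all times 1 of the 18, Adrm1, a ubiquitin receptor, was called higher (0.33 ± 0.08, adjusted p = 0.0227), against 6.81% of all genes. The Adrm1 call was lost under 6 of the left-out libraries, with values of 0.31 to 0.34, under total-count scaling (0.15, adjusted p = 0.366), with DESeq2 (adjusted p = 0.107) and without the time block (adjusted p = 0.204). Of 6 genes of other activators and assembly factors 1 rose late in WT, against 4.17% of all genes called higher. Psme3, which encodes the nuclear PA28 gamma, changed by 0.74 ± 0.18 in WT (adjusted p = 0.0355) and by 0.22 ± 0.18 in KO (adjusted p = 0.559). The Psme3 call was lost without WT 45 min (0.73, adjusted p = 0.0810), without WT 60 min (0.72, adjusted p = 0.0845), under total-count scaling (0.53, adjusted p = 0.507), with 15 min as the baseline (0.52, adjusted p = 0.146), with DESeq2 (adjusted p = 0.164) and without a count filter (adjusted p = 0.114).

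Of 10 genes of peptide loading and trimming 0 were called in the late response of either genotype, and before adjustment 0 in KO and 1 in WT had an edgeR p under 0.05. The chaperones Calr, Canx and the thiol oxidoreductase gene Pdia3, which work beside tapasin, changed late by -0.44, 0.17 and -0.12 in KO and by -0.32, 0.05 and -0.34 in WT, and none was called in KO against WT. Lower in KO were 2 of the 10, against 9.44% of all genes over all times and 7.88% late: the aminopeptidase gene Erap1, which trims peptides, at -0.85 ± 0.18 over all times (adjusted p = 0.0120) and -1.18 ± 0.27 late (0.0110), and the tapasin relative Tapbpl, at -1.12 ± 0.32 over all times (0.0411) and -1.59 ± 0.39 late (0.0184). The late call of Erap1 was lost without WT 60 min (-0.80), KO 45 min (-1.16) or KO 60 min (-1.20), with DESeq2 and without a count filter. Its call over all times was lost without KO 45 min (-0.85). The late call of Tapbpl was lost without WT 60 min (-1.14) or KO 60 min (-1.26), with DESeq2 and without a count filter. Its call over all times was lost under 6 of the left-out libraries, with values of -1.22 to -0.68, with DESeq2 and without the time block.

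The class I heavy chain genes, which the light chain B2m partners, are related genes, some of them close copies of each other, so the counts of such copies are uncertain. Of the 7 that could be tested 4 rose late in WT, against 4.17% of all tested genes called higher: H2-K1 (2.10 ± 0.23), H2-D1 (1.19 ± 0.19), H2-Q4 (1.47 ± 0.28) and H2-Q6 (4.43 ± 0.93). In KO 0 were called, also 0 before adjustment. The H2-D1 call was lost under total-count scaling (0.98, adjusted p = 0.0929). That of H2-Q4 was lost with DESeq2 (adjusted p = 0.100) and without a count filter (adjusted p = 0.0678). That of H2-Q6 was lost with 15 min as the baseline (2.14, adjusted p = 0.107) and without a count filter (adjusted p = 0.0875). H2-Q4 had 11, 8, 4 and 4 counts in KO and 86, 72, 184 and 257 in WT. H2-Q6 had 0, 0, 1 and 0 counts in KO and 1, 5, 26 and 19 in WT. Both entered the tests only through their WT libraries. For H2-Q6 these were the WT 45 and 60 min libraries alone, so the filter itself favoured its late rise in WT. Of the other 5, H2-K1 and H2-D1 were called lower in KO over all times and late, except H2-K1 over all times with robust empirical Bayes (-3.16, adjusted p = 0.0835). H2-T22, H2-T23 and H2-M3 were also called lower in both. Over all times these calls were lost under 3, 6 and 5 alternatives in that order. Late, those of H2-T23 and H2-M3 were lost under 5 and 6. H2-K1 had 72, 70, 55 and 39 counts in KO and 267, 294, 952 and 1168 in WT, and its difference between late responses was -2.34 ± 0.37 (adjusted p = 0.0134, and 0.240 without a count filter). H2-D1 had 82, 45, 52 and 48 counts in KO and 345, 267, 706 and 751 in WT, with a difference of -1.53 ± 0.30 (adjusted p = 0.0520, and 0.0271 to 0.0479 without WT 45 min, WT 60 min or KO 15 min, and 0.00467 against 0 and 15 min together). Of 8 class II pathway genes, which serve the presentation of outside antigens, 6 were too low to test. All 8 together summed to 2.70 to 3.41 CPM in KO and 5.66 to 6.51 CPM in WT. Of the 2 tested, H2-DMa averaged 2.48 CPM in KO and 2.45 CPM in WT. Ctss averaged 0.0718 CPM in KO and 2.64 CPM in WT, and was called lower in KO over all times and late. It entered the tests only through its WT libraries.

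Of 16 genes known to regulate class I genes 6 rose late in WT, against 4.17% of all tested genes called higher. In KO 0 were called, against 1.32% called higher and 0.518% called lower. Before adjustment 4 had an edgeR p under 0.05 in KO, 3 higher and 1 lower. The interferon regulatory factor Irf1, a transcription factor that acts at ISRE sites, had 176, 114, 203 and 234 counts in KO and 224, 1162, 4053 and 3110 counts in WT. In WT its count at 15 min already lay above that at 0 min and above every KO count, and its late change was 0.68 ± 0.22 in KO (adjusted p = 0.132) and 4.11 ± 0.24 in WT (1.49e-06). The RFX subunit gene Rfx5, whose complex works with Nlrc5, rose by 1.48 ± 0.20 in WT (adjusted p = 0.000933) and stood at -0.06 ± 0.19 in KO (0.903). The interferon receptor genes Ifngr1 (1.63 ± 0.21), Ifngr2 (1.62 ± 0.22), Ifnar2 (1.20 ± 0.22) and Ifnar1 (1.09 ± 0.18) also rose in WT, the last pair not called under total-count scaling (0.99 and 0.88). In KO Ifngr2 was called higher without WT 45 min (0.90) or WT 60 min (0.89). The difference between responses, KO minus WT, was called for 4 of the 16, against 0.492% of all genes called lower: Irf1 (-3.43 ± 0.30, adjusted p = 0.000149), Ifngr1 (-1.82 ± 0.28, 0.0131), Rfx5 (-1.54 ± 0.27, 0.0273) and Ifnar2 (-1.57 ± 0.30, 0.0464). Against the 15 min library in place of 0 min none of the 4 differences was called, with -0.88 for Irf1 (adjusted p = 0.588), -1.53 for Ifngr1 (0.0885), -1.21 for Rfx5 (0.160) and -1.35 for Ifnar2 (0.177). That of Irf1 was also lost against 0 and 15 min together (-1.68, adjusted p = 0.369). The Rfx5 difference was lost without KO 45 min (-1.39) and under total-count scaling (-1.51, adjusted p = 0.142). That of Ifnar2 was lost without KO 45 min (-1.60) or KO 60 min (-1.55), under total-count scaling (-1.57, adjusted p = 0.209), with DESeq2 (adjusted p = 0.344) and with limma-voom (adjusted p = 0.0617). Without a count filter the differences of Ifngr1, Rfx5 and Ifnar2 were not called either (adjusted p = 0.150, 0.275 and 0.270 in that order).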

How the data were processed

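Chromatin-associated RNA from 8 samples was sequenced after ribosomal RNA depletion with a stranded kit, reading 1 end, per the labels' protocols. The submitters' processing notes name cutadapt 1.12, STAR, featureCounts 1.5.0, DESeq2 and the build mm10, with no role or order. The authors deposited unnormalized counts, whole numbers for each gene and library with the exon length, per the file headers. No source used here gives the strand setting, the handling of reads with several matches or the annotation release. A symbol was matched to 98.77% of identifiers.

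Samples were grouped by labelled genotype and time. No 2 libraries were duplicates, with a chi-square per degree of freedom of 8.43 to 56.5 between pairs. The genes, the lists of related genes and the markers were chosen with earlier results of these data known. All 10 genes are named in each comparison, and of the other lists the called members, up to 4 per list and direction by smallest p, with a fixed set (Psmb5, Psmb6, Psmb7, Irf1, Rfx5, Calr, Canx, Pdia3, Erap1, H2-K1, H2-D1, Rela and Rel, and 1 more that is not reported here).

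A gene was tested if 2 or more libraries held 10 or more of its counts, which kept 15049. The test was quasi-likelihood in edgeR 4.0.16 (R 4.3.3) after TMM scaling, with factors of 0.818 to 1.21, and Benjamini-Hochberg adjustment ran over all genes kept. The late comparisons used 6 cell means (0 min, 15 min, and 45 with 60 min, per genotype) with 2 residual degrees of freedom, and the genotype comparison over all times used time as a block with 3. A standard error is the log2 change over the root of its F statistic. Where no read was counted, up to 3 counts remain possible, which is 0.179 to 0.265 CPM. Intervals (scipy 1.17.1) and this limit cover counting error only, because PCR copies are not independent molecules. The fits were tested on simulated counts. Alternatives were RLE scaling, total counts, gene models over 10% of a library left out, DESeq2 1.42.0, limma-voom (limma 3.58.1), robust empirical Bayes, no filter, a minimum of 50 counts, other baselines, no time block, and each library left out. Figures were drawn with matplotlib 3.10.9.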

Additional observations from a re-analysis of the deposited data

Results flagged for a closer look

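The late response to TNF differed between genotypes by the test of the difference itself (edgeR quasi-likelihood test, adjusted over all genes) for 1 of the 10 class I processing genes and 5 related genes. On the log2 scale, KO minus WT, the difference was -1.81 for Tapbp, -2.34 for the heavy chain gene H2-K1, -3.43 for Irf1, -1.54 for Rfx5, -1.82 for Ifngr1 and -1.57 for Ifnar2. Each response was smaller in KO than in WT. Calls that were lost when a library was left out are those of Tapbp (without KO 45 min, -1.84, or KO 60 min, -1.78), Rfx5 (without KO 45 min, -1.39) and Ifnar2 (without KO 45 min, -1.60, or KO 60 min, -1.55). With 15 min in place of 0 min as the baseline, none of the differences of Irf1 (-0.88), Ifngr1 (-1.53), Rfx5 (-1.21) and Ifnar2 (-1.35) was called, and without a count filter that of Irf1 was the only call among the 6.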

How the results depend on the processing

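Over 820 recomputed fold changes of the 10 genes, 747 kept direction and side of the threshold, 40 lost a call, 11 gained one, 0 reversed a called direction and 22 uncalled ones changed sign. The count of genes that rose late in WT, 2, became 1 with DESeq2, 0 without a count filter, and 1 to 3 with a library left out. The count that fell late in KO, 0, became 1 with 0 and 15 min as baseline. The count with a lower response in KO, 1, became 0 with limma-voom, 0 without a filter, and 0 to 2 with a library left out. The count lower in KO over all times, 9, became 5 with robust empirical Bayes and 4 to 9 with a library left out, and the late count, 8, became 7 to 10. Without a filter the test covers more genes, and leaving out a late library removes a degree of freedom. Leaving out a library can also move the value itself, as that of Psmb10 over all times, which was -0.71 without WT 60 min. What caused the changes in calls was not tested.

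Scaling by total counts moved the median of all genes by -0.20 (late KO), -0.21 (late WT), -0.18 (KO against WT, all times) and -0.17 (late KO against WT) on the log2 scale. The calls over all genes, higher against lower, were then 57 and 155 in place of 198 and 78 in KO, 304 and 280 in place of 628 and 197 in WT, 477 and 2898 in place of 1025 and 1421 for all times, and 216 and 1268 in place of 590 and 1186 late. Over all alternatives the late WT counts ran from 248 to 1097 higher and 30 to 572 lower, the late KO counts from 8 to 706 and 9 to 438, those of the difference from 0 to 19 (1 as reported) and 14 to 179 (74), those over all times from 360 to 1396 and 708 to 2898, and those of late KO against WT from 216 to 599 and 684 to 1268.

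For ratios of single libraries, total counts, chosen after seeing the data, gave 1 gene 2-fold lower at 45 min in KO (0 as reported), 1 KO interval above 1 between 45 and 60 min (0), 2 genes lower at 15 min in WT (1), 0 higher at 45 min (2), and 5 higher between 45 and 60 min (3). This scaling moves every log2 ratio by the same amount, 0.36 in KO and 0.11 in WT between 45 and 60 min and -0.39 in KO and -0.27 in WT between 0 and 45 min. The 9 WT intervals above 1 between 45 and 60 min were also 9 under total counts and RLE scaling. No paired analysis was possible because the labels give no replicate numbers, other than the match of KO and WT libraries by time, which the block over all times uses. Depth limits Psmb8 and Psmb9, with at most 10 counts in a KO library.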
